A study of Homo sapiens with 9 samples.

Results

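The effect of raised fluid viscosity without a knockdown was read in MDA-MB-231 cells that carried a scramble control (SC) short hairpin. SC cells kept at 8 cP were compared with SC cells kept at 0.77 cP. All 6 SC libraries of the 9 in the series were members, 3 at each viscosity, chosen by their labels, and every gene was compared. MDA-MB-231 is a human breast cancer line with mesenchymal features, and both groups were transduced with the pLKO.1 puro vector holding a non-targeting sequence, selected with puromycin and collected on day 6. Viscosity, given in centipoise (cP), was raised with methylcellulose, a cellulose polymer that thickens medium. The polymer and the viscosity that it gives cannot be told apart in this contrast. The study's methods state that medium was changed every other day and that cells were passed when nearly confluent. The remaining 3 libraries, cells with a hairpin against the calcium channel TRPV4 at 8 cP, were not part of the contrast. They entered the fit through the filter on low counts, the scaling and the shared estimate of spread. A single cell line was used, and no source states that the replicates were separate cultures, so that p-values measure only the spread between these samples.

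Cells sense the fluid around them through the cortex and its membrane channels, and a thicker fluid loads the leading edge, calcium-permeable channels and the actin network. Signals of this kind reach the nucleus through kinase cascades, calcium, and regulators such as YAP, and they change genes within minutes to hours. Growth, biosynthesis, matrix production and stress programmes are read here after days in the thicker fluid. The lists of immediate early genes and of cholesterol synthesis are kept here as context only. Other quickly induced genes may stand in the lists below, and SREBF2, the sterol-sensing factor, does. Of 27 tested immediate early genes, 24 fell and 1 rose at 8 cP, where 9.69% of all tested genes fell and 9.57% rose, with a median log2 fold change of -1.18, and of 23 tested genes of cholesterol synthesis 17 were lower, with a median of -0.35.

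Each SC library held 64571681 to 103518036 counts over 60664 listed genes, and 18264 genes passed the filter on low counts. Levels are given as CPM, counts per 1000000 counted, after TMM scaling, and differences as log2 fold changes of 8 cP against 0.77 cP with the standard error (SE) of the fit. Mitochondrially encoded transcripts took 2.04% to 2.58% of the counts in the SC libraries. The identity of the line was checked against its markers: VIM, CD44, CAV1, AXL and MSN ranged from 627.1 to 1458 CPM, whereas ESR1, PGR, CDH1 and KRT5 were at 0.12 CPM or below. The list was not met in full, since SPARC was only at 0.714 to 1.63 CPM and EPCAM stood at 17.5 to 19.4 CPM. Markers of other cell types were mostly at or near 0 (PTPRC, CD3E, CD68, CDH5, VWF, DCN, PDGFRA, MLANA, PAX2 and LIN28B, each at or below 0.18 CPM), but others were not. PECAM1 was at 3.95 to 6.22 CPM at 0.77 cP and at 2.49 to 3.07 CPM at 8 cP, PMEL at 1.66 to 1.98 and at 1.07 to 1.32 CPM, PAX8 at 4.26 to 5.35 CPM and LUM at 0.607 to 0.935 CPM over both groups, and COL1A1 and COL1A2 are given with the collagens. TRPV4, which the hairpin of the third group targets, stood at 0.424, 0.436 and 0.525 CPM at 0.77 cP and at 0.647, 0.466 and 0.264 CPM at 8 cP in SC cells, against 0.0764, 0.0128 and 0.144 CPM in shTRPV4 cells.

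Many genes differed between the viscosities by small amounts. By edgeR's quasi-likelihood test with a Benjamini-Hochberg adjusted p below 0.05, 3518 genes (19.3% of those tested) differed, of which 1748 (9.57%) were higher and 1770 (9.69%) were lower at 8 cP. Of these 3518, 2820 changed by less than 0.5 on the log2 scale. The large changes lay on one side: 20 genes rose and 237 fell by at least 1 on that scale. The median over all genes tested was -0.0065. Groups that do not overlap were common, with 3536 of the 18264 tested genes higher and 3472 lower in every 8 cP library than in every 0.77 cP library, and the rule for the largest changes required it, so that it is given below only as a description. The counts leaned on single libraries. Without SC 0.77 cP replicate 1 they were 671 higher and 738 lower, and without SC 0.77 cP replicate 2 they were 963 and 964. Without SC 8 cP replicate 3 they were 687 and 731. Counts of list members in such refits, given below, are to be read beside these totals. Same-numbered SC libraries deviated together among genes above 1 CPM, with correlations of 0.11 to 0.40, while differently numbered SC pairs ran from -0.29 to 0.14. Pairs of an SC and a shTRPV4 library did not follow the numbers. Among the same genes the same-numbered ones ran from -0.25 to 0.15 and the differently numbered ones from -0.33 to 0.37. Deviations from a group mean cancel within the group, so that these correlations depend on one another. No source states what the numbers mark. With the replicate number as a block the fit of all samples called 1740 genes higher and 1735 lower, and the same fit of the 6 SC libraries alone called 2929 and 2963. In bulk RNA, fewer cells of a kind and less RNA per cell cannot be told apart.

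The 71 gene lists read here cover 2357 tested genes, and in 44 of them at least 1 in 3 tested members changed. Lists of DNA replication, homologous recombination, nucleotide synthesis, mitosis, ribosome biogenesis and aminoacyl-tRNA synthetases moved up with no members moving down. Other lists of growth and biosynthesis held more members lower than higher. These were cytosolic ribosomal proteins, histones, small nucleolar RNA host genes, fatty acid synthesis and cholesterol synthesis. Lists of inflammatory signalling, hypoxia, Notch, matrix and epithelial keratins moved down.

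**Figure D1:**
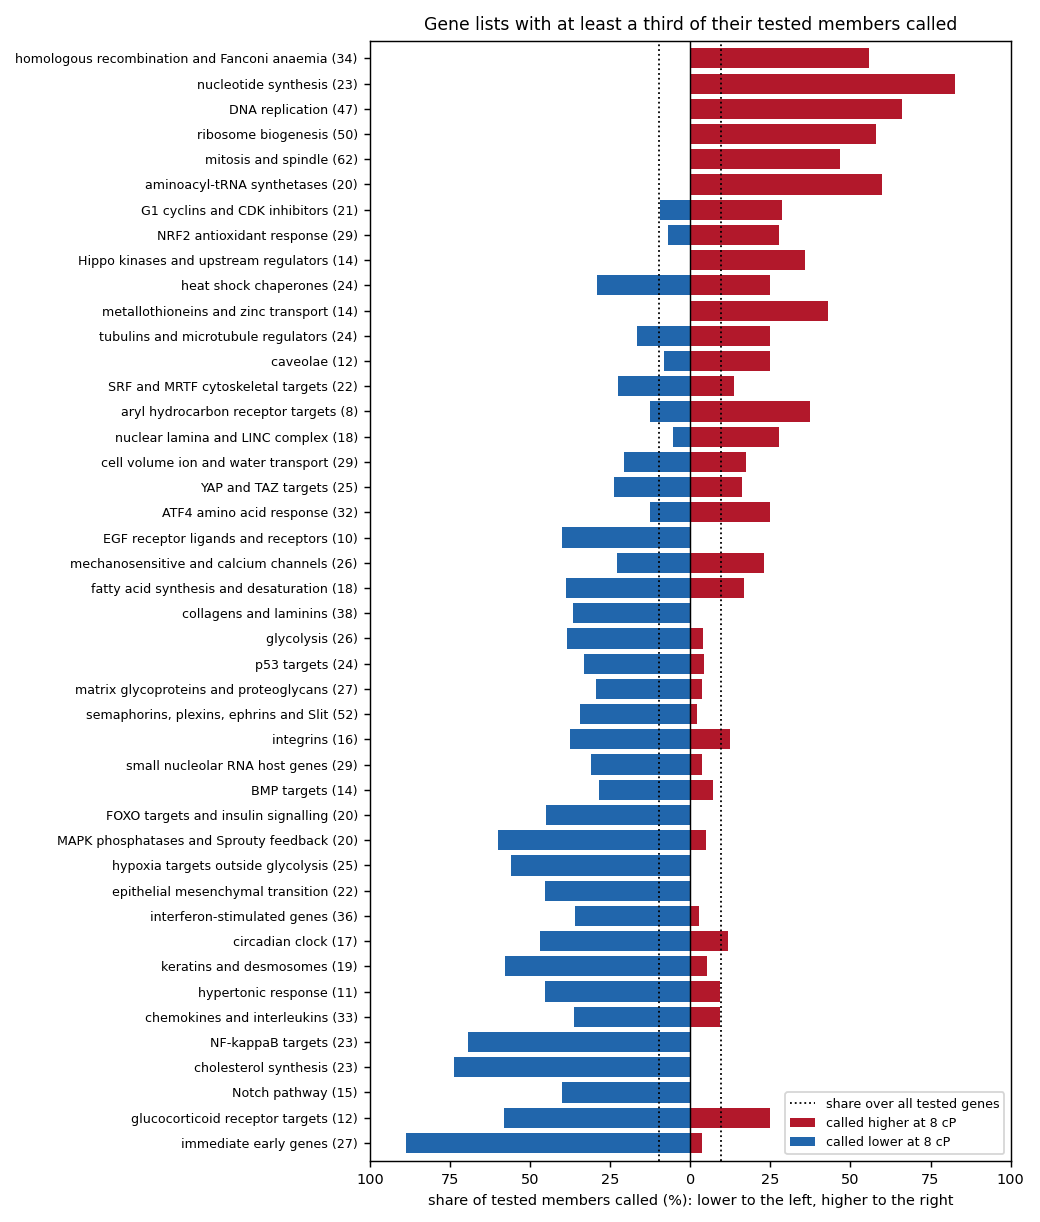
Share of tested members called higher (red, to the right) and lower (blue, to the left) at 8 cP in the 44 lists with at least 1 in 3 members called, ordered by median log2 fold change, with the number tested in brackets; dotted lines mark the shares over all tested genes, 9.57% and 9.69%. Nucleotide synthesis and DNA replication reach furthest to the right, and immediate early genes and cholesterol synthesis furthest to the left.

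Many DNA replication genes rose. In this list 31 of the 47 tested members rose and 0 fell, with a median log2 fold change of 0.22, against 9.57% of all tested genes rising. MCM6, a subunit of the helicase that opens replication origins (chromosome 2, 135839626 to 135876443 on GRCh38), was at 139.8, 139 and 154 CPM at 0.77 cP and 174, 178 and 186 CPM at 8 cP (log2 fold change 0.31 ± 0.049, edgeR adjusted p = 0.00084). PCNA, the sliding clamp of the replication fork, was at 223, 226 and 248 CPM at 0.77 cP and 271, 279 and 288 CPM at 8 cP (log2 fold change 0.27 ± 0.047, edgeR adjusted p = 0.00189). For both genes the SC groups did not overlap, and replicate 3 was the highest library at each viscosity. WDHD1, which links helicase and polymerase, was at 80.3, 80.9 and 89.4 CPM at 0.77 cP and 104.1, 104.2 and 113 CPM at 8 cP (log2 fold change 0.36 ± 0.056, edgeR adjusted p = 0.00087). RFC3, a subunit of the clamp loader, was at 38.2, 42.6 and 43.4 CPM at 0.77 cP and 49.4, 51.5 and 54.9 CPM at 8 cP (log2 fold change 0.33 ± 0.056, edgeR adjusted p = 0.0016). Of 10 tested genes whose symbols begin with MCM, 7 rose (MCM2, MCM3, MCM4, MCM5, MCM6, MCM8 and MCM10), the highest share among 249 symbol families of at least 8 tested genes.

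Nucleotide supply moved the same way. Among genes of nucleotide synthesis 19 of the 23 tested members rose and 0 fell, with a median log2 fold change of 0.23. RRM2, the regulated subunit of ribonucleotide reductase that makes deoxynucleotides, was at 184, 193 and 229 CPM at 0.77 cP and 255, 252 and 286 CPM at 8 cP (log2 fold change 0.39 ± 0.082, edgeR adjusted p = 0.00552). GMPS, the last enzyme of guanine nucleotide synthesis, was at 79.8, 86.3 and 89.2 CPM at 0.77 cP and 105, 99.1 and 106 CPM at 8 cP (log2 fold change 0.28 ± 0.050, edgeR adjusted p = 0.00189). Both were separated between the groups. ATIC, which closes the purine ring, and TYMS, which makes thymidylate, changed by 0.26 ± 0.053 and 0.23 ± 0.047 on the log2 scale (edgeR adjusted p = 0.00398 and 0.00395). All 23 tested members had positive estimates, between 0.0545 and 0.41.

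Genes of homologous recombination and the Fanconi anaemia pathway, which repair broken and stalled forks, followed. Here 19 of the 34 tested members rose and 0 fell, with a median log2 fold change of 0.24. ATR, the kinase that answers stalled forks, was at 25.1, 25.5 and 27.4 CPM at 0.77 cP and 33.0, 32.6 and 37.0 CPM at 8 cP (log2 fold change 0.39 ± 0.068, edgeR adjusted p = 0.00182), although 2048 of its exon bases are also antisense exon bases. RBBP8, which starts end resection, was at 68.9, 70.5 and 82.6 CPM at 0.77 cP and 91.4, 93.0 and 107 CPM at 8 cP (log2 fold change 0.39 ± 0.073, edgeR adjusted p = 0.00248). CHEK1 and XRCC2 changed by 0.27 ± 0.048 and 0.38 ± 0.069 (edgeR adjusted p = 0.00207 and 0.00246).

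A smaller share of mitotic genes rose. In the mitosis and spindle list 29 of the 62 tested members rose and 0 fell, with a median log2 fold change of 0.16. CCNA2, the cyclin of S and G2 phase, was at 189.9, 206 and 211 CPM at 0.77 cP and 242, 253 and 259.8 CPM at 8 cP (log2 fold change 0.31 ± 0.049, edgeR adjusted p = 0.00076). TOP2A, which untangles sister chromatids, was at 622, 623 and 658 CPM at 0.77 cP and 767, 754 and 865 CPM at 8 cP (log2 fold change 0.33 ± 0.062, edgeR adjusted p = 0.00276). KNL1, a scaffold of the kinetochore, and SMC4, a core of condensin, changed by 0.33 ± 0.066 and 0.22 ± 0.044 (edgeR adjusted p = 0.0043 and 0.00398). In TOP2A replicate 3 stood out at 8 cP, with the other 2 libraries close together. Among G1 cyclins and CDK inhibitors 6 of the 21 tested members rose and 2 fell, with a median log2 fold change of 0.11. SKP2, which marks the inhibitor p27 for destruction, was at 26.1, 24.1 and 28.2 CPM at 0.77 cP and 38.0, 35.6 and 41.1 CPM at 8 cP (log2 fold change 0.55 ± 0.070, edgeR adjusted p = 0.00014). CCNE1 and E2F1, which drive entry into S phase, changed by 0.45 ± 0.076 and 0.28 ± 0.058 (edgeR adjusted p = 0.00151 and 0.00441). CDKN1A, the CDK inhibitor p21, went the other way, at 222, 215 and 212 CPM at 0.77 cP and 157, 153 and 156 CPM at 8 cP (log2 fold change -0.48 ± 0.042, edgeR adjusted p = 2.4e-06). Replication-dependent histones did not follow: 1 of the 35 tested members rose and 3 fell, with a median log2 fold change of -0.06, and libraries selected for poly(A) hold few of these transcripts.

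Promoters of cell cycle genes often carry E2F and cell cycle homology motifs, and both were counted. The E2F motif, searched as TTTGGCGC or TTTCGCGC on both strands of the window from 250 bases before to 50 bases after the start, was in 25% of 40 DNA replication promoters with a RefSeq entry and in 1.96% of all 12108 such promoters. It was in 3.75% of the promoters of genes that rose and in 1.02% of those of genes that fell. The cell cycle homology region, searched as TTTGAA on both strands, was in 67.9% of 53 mitosis promoters and in 10.0% of all. Stretches upstream of MCM6 and TOP2A are shown because both genes rose and both hold the motif of their list in 2 places; they are taken from RefSeq on GRCh38.p14 and written on the strand of the gene, with the motif in capitals.
MCM6, chr2:135876502-135876615, minus strand: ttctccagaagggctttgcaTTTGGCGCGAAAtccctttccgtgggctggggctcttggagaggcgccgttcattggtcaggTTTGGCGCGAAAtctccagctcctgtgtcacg
TOP2A, chr17:40418022-40418110, minus strand: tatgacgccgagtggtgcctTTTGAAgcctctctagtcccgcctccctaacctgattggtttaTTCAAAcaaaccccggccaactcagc
In MCM6 each capital stretch joins an overlapping match on either strand. A match describes the letters only and is not a measured binding site.

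Some nuclear architecture genes rose as well. In the nuclear lamina and LINC list 5 of the 18 tested members rose and 1 fell, with a median log2 fold change of -0.01. LMNB1, the B-type lamin, was at 147, 154 and 162 CPM at 0.77 cP and 186, 181 and 194 CPM at 8 cP (log2 fold change 0.27 ± 0.046, edgeR adjusted p = 0.00142). LBR, its receptor in the inner membrane, changed by 0.24 ± 0.054 (edgeR adjusted p = 0.00713). LEMD2 fell by 0.14 (edgeR adjusted p = 0.0383), a call that was lost in 7 of 9 refits that left out 1 library. Of 22 tested nucleoporins (symbols beginning with NUP), the proteins of the nuclear pore, 11 rose and none fell, with a median of 0.19.

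Many ribosome assembly genes rose. In ribosome biogenesis 29 of the 50 tested members rose and 0 fell, with a median log2 fold change of 0.18. RRS1, needed for the large subunit, was at 13.8, 13.9 and 14.8 CPM at 0.77 cP and 21.7, 21.5 and 23.8 CPM at 8 cP (log2 fold change 0.65 ± 0.075, edgeR adjusted p = 4.4e-05). URB2, an assembly factor, was at 20.3, 21.5 and 27.4 CPM at 0.77 cP and 33.4, 31.0 and 35.7 CPM at 8 cP (log2 fold change 0.53 ± 0.098, edgeR adjusted p = 0.0026). DKC1, the pseudouridine synthase of small nucleolar particles, was at 116, 119 and 136 CPM at 0.77 cP and 153, 150.2 and 167 CPM at 8 cP (log2 fold change 0.34 ± 0.059, edgeR adjusted p = 0.00173). In all of these genes the SC groups did not overlap, and replicate 3 was the highest at 0.77 cP. Of 10 tested UTP genes, which process the small subunit, 6 rose, and of 8 tested RRP genes 4 rose. For cytosolic ribosomal proteins 2 of the 85 tested members rose and 6 fell, with a median log2 fold change of -0.06. Both shares were below those of all genes. In the blocked fit of the 6 SC libraries 29 fell, where 2963 of all 17894 tested genes fell. Small nucleolar RNA host genes, whose introns carry the guide RNAs of ribosome assembly, leaned down: 1 of the 29 tested members rose and 9 fell, with a median log2 fold change of -0.18. GAS5 was at 138, 141 and 139 CPM at 0.77 cP and 119, 127 and 119 CPM at 8 cP (log2 fold change -0.19 ± 0.045, edgeR adjusted p = 0.00856). ZFAS1 and EPB41L4A-AS1 fell by 0.44 and 0.49 (edgeR adjusted p = 0.00328 and 0.00113), but at least 2200 exon bases of each are antisense exon bases too.

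Translation and protein turnover genes leaned up too, most clearly the synthetases. Among cytosolic aminoacyl-tRNA synthetases, which charge tRNAs with amino acids, 12 of the 20 tested members rose and 0 fell, with a median log2 fold change of 0.15. IARS1 was at 228, 239.9 and 274 CPM at 0.77 cP and 306, 301 and 324 CPM at 8 cP (log2 fold change 0.33 ± 0.061, edgeR adjusted p = 0.00266). NARS1 was at 103.6, 107 and 112 CPM at 0.77 cP and 129, 128 and 135 CPM at 8 cP (log2 fold change 0.29 ± 0.045, edgeR adjusted p = 0.00082). The groups were separate in both, and IARS1 replicate 3 at 0.77 cP lay nearest to the other group. EPRS1 and LARS1 changed by 0.24 ± 0.047 and 0.20 ± 0.044 (edgeR adjusted p = 0.0034 and 0.00662). For translation factors 8 of the 32 tested members rose and 2 fell, with a median log2 fold change of 0.12, and EIF4E, the cap-binding protein, changed by 0.29 ± 0.051 (edgeR adjusted p = 0.00179). For the proteasome 11 of the 41 tested members rose and 0 fell, with a median log2 fold change of 0.09, led by its activator PSME3 (log2 fold change 0.28 ± 0.050, edgeR adjusted p = 0.00182).

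The replicates carried this programme unevenly. For DNA replication, the median over members of log2 CPM, taken relative to each gene's mean over the 6 libraries, was -0.17, -0.18 and -0.01 in the 3 libraries at 0.77 cP and 0.08, 0.10 and 0.17 in the 3 at 8 cP. For ribosome biogenesis it was -0.12, -0.14 and 0.00 in the 3 libraries at 0.77 cP and 0.05, 0.07 and 0.15 in the 3 at 8 cP. Every 8 cP library lay above every 0.77 cP library in both lists, yet SC 0.77 cP replicate 3 sat near 0 and SC 8 cP replicate 3 was the highest. For mitosis and spindle it was -0.14, -0.12 and 0.01 in the 3 libraries at 0.77 cP and 0.05, 0.06 and 0.15 in the 3 at 8 cP. The unevenness was not particular to the rising lists. For NF-kappaB targets, which fell, the median was 0.13, 0.36 and 0.06 at 0.77 cP and -0.16, -0.14 and -0.21 at 8 cP, with replicate 3 again nearest at 0.77 cP. The number of members that rose moved when 1 SC library was left out: 19 to 40 for DNA replication, 5 to 20 for nucleotide synthesis, 10 to 21 for homologous recombination, 8 to 34 for ribosome biogenesis, 6 to 15 for the synthetases and 12 to 41 for mitosis. The lowest of each range came without SC 0.77 cP replicate 1, a refit in which 671 of all 18596 tested genes rose. No member of these 6 lists fell in any of those refits. The shTRPV4 libraries at 8 cP had DNA replication medians of 0.28, 0.17 and 0.12 and ribosome biogenesis medians of 0.27, 0.25 and 0.24 on the same scale, a comparison with SC cells that was not tested here.

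**Figure D2:**
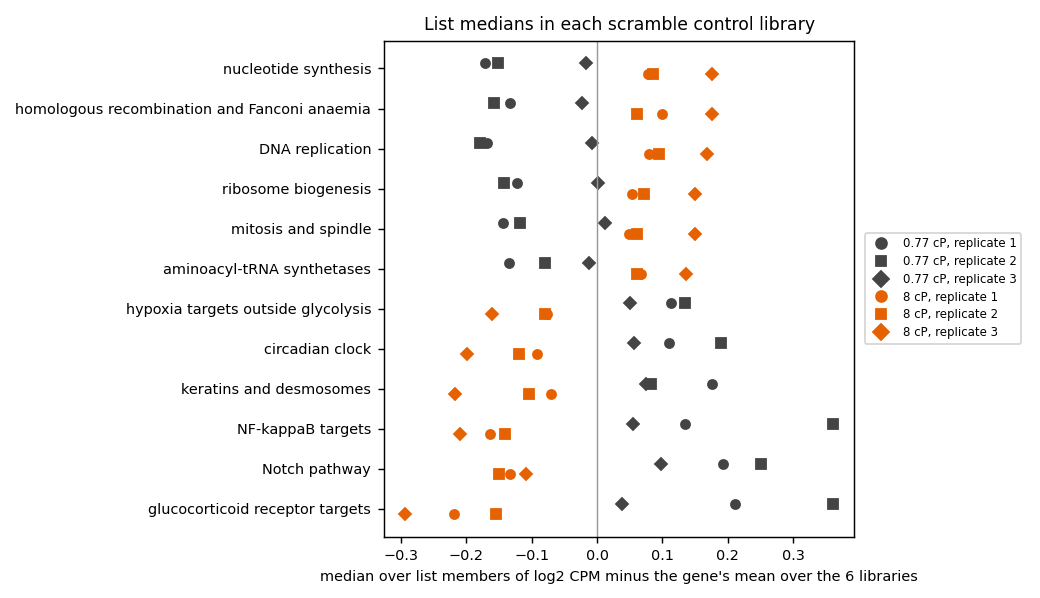
List medians in each SC library: the x axis gives the median over list members of log2 CPM minus the gene's mean over the 6 libraries, dark grey for 0.77 cP and orange for 8 cP, with a symbol for each replicate number. The groups are apart in all 12 lists, and in all 12 replicate 3 is the 0.77 cP library nearest to the 8 cP group.

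**Figure D3:**
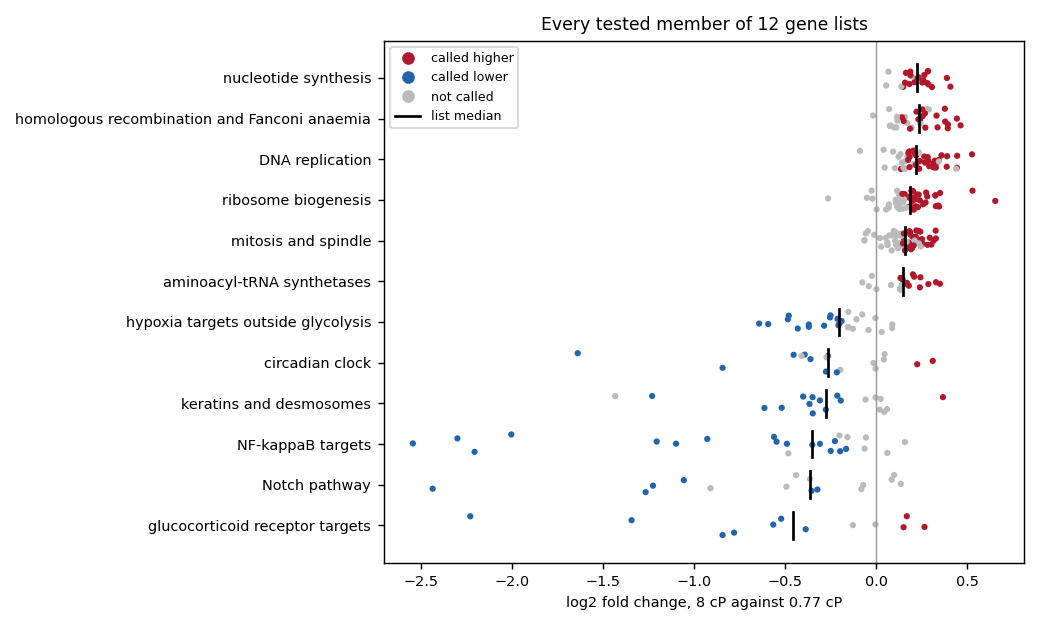
Log2 fold change, 8 cP against 0.77 cP, of every tested member of the same 12 lists (red, called higher; blue, called lower; grey, not called; black bar, list median). The rising lists form tight bands below 0.7, while the falling lists spread to about -2.5 through a few members.

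The largest rises were mostly in genes of low level. CYP1A1, the classic xenobiotic-oxidising enzyme induced through the aryl hydrocarbon receptor (chromosome 15, 74719542 to 74725536), was at 1.75, 1.68 and 2.17 CPM at 0.77 cP and 6.08, 5.64 and 10.5 CPM at 8 cP (log2 fold change 1.97 ± 0.31, edgeR adjusted p = 0.00096). Replicate 3 was the highest in each group. CYP1B1, another enzyme induced through that receptor, was at 195, 223 and 186 CPM at 0.77 cP and 342, 313 and 347 CPM at 8 cP (log2 fold change 0.73 ± 0.089, edgeR adjusted p = 8.9e-05), with 774 exon bases that are also antisense exon bases. NQO1, a quinone reductase under the control of this receptor and of NRF2, was at 248, 255 and 246 CPM at 0.77 cP and 303, 304 and 318 CPM at 8 cP (log2 fold change 0.31 ± 0.041, edgeR adjusted p = 0.00023). Among 8 tested targets of the receptor 3 rose and 1 fell, and the one that fell was AHR itself (log2 fold change -0.18 ± 0.060, edgeR adjusted p = 0.0495), whose groups overlapped and whose call was lost in 7 of 9 refits without 1 library. The core motif of the receptor, GCGTG on either strand, is short and was in 49.4% of all promoters, in 57.2% of those of genes that rose and in 45.7% of those of genes that fell. It lies upstream of CYP1A1, shown because this gene had the largest rise of those chosen by rule, with the motif in capitals.
CYP1A1, chr15:74725561-74725605, minus strand: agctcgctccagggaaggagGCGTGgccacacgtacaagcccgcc

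KCNK2, which encodes the stretch-gated potassium channel TREK-1, was at 0.976, 0.951 and 1.16 CPM at 0.77 cP and 1.87, 2.21 and 2.74 CPM at 8 cP (log2 fold change 1.13 ± 0.16, edgeR adjusted p = 0.00042). SHISA2, an endoplasmic reticulum protein that restrains Wnt and FGF receptors, was at 13.9, 14.5 and 15.9 CPM at 0.77 cP and 26.1, 26.2 and 35.0 CPM at 8 cP (log2 fold change 0.98 ± 0.18, edgeR adjusted p = 0.00246). Both kept their call in each refit without 1 library. SERPINB2, an inhibitor of urokinase, was at 0.923, 1.51 and 1.56 CPM at 0.77 cP and 2.29, 2.91 and 3.57 CPM at 8 cP (log2 fold change 1.14 ± 0.29, edgeR adjusted p = 0.013), and this call was lost in 2 such refits. ZNF543, a zinc finger gene, was at 3.21, 2.71 and 2.93 CPM at 0.77 cP and 4.96, 4.98 and 5.10 CPM at 8 cP (log2 fold change 0.76 ± 0.093, edgeR adjusted p = 9.5e-05). The antisense transcript HHLA3-AS1 changed by 0.81 ± 0.14 (edgeR adjusted p = 0.00173). The remaining large rises were in OR7E22P, ZNG1C, TMSB15B and KRTAP2-3 (0.94, 0.94, 0.87 and 0.77), which belong to families of near-identical copies, so that how their reads were assigned is uncertain.

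Some redox and metal-handling genes rose. Of the NRF2 antioxidant list 8 of the 29 tested members rose and 2 fell, with a median log2 fold change of 0.08. SLC7A11, the cystine importer, was at 35.7, 40.5 and 35.0 CPM at 0.77 cP and 49.5, 49.8 and 60.0 CPM at 8 cP (log2 fold change 0.52 ± 0.089, edgeR adjusted p = 0.00159). GCLM, the regulatory subunit of glutathione synthesis, was at 68.9, 86.1 and 86.3 CPM at 0.77 cP and 100.6, 101.3 and 105 CPM at 8 cP (log2 fold change 0.35 ± 0.071, edgeR adjusted p = 0.00451). GCLC, its catalytic partner, changed by 0.26 ± 0.060 (edgeR adjusted p = 0.00826). SC 0.77 cP replicate 1 was the lowest library for GCLM, and the groups did not overlap in any of the 3 genes. ABCC3, an exporter, fell (log2 fold change -0.32 ± 0.079, edgeR adjusted p = 0.0117). Among metallothioneins and zinc transporters 6 of the 14 tested members rose and 0 fell, with a median log2 fold change of 0.06. MT1E was at 198, 206 and 212 CPM at 0.77 cP and 224, 251 and 234 CPM at 8 cP (log2 fold change 0.20 ± 0.051, edgeR adjusted p = 0.0139), and the count of 6 ranged from 1 to 7 without 1 SC library. CPT1A, which takes fatty acids into mitochondria, changed by 0.45 ± 0.087 (edgeR adjusted p = 0.00339).

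**Figure D4:**
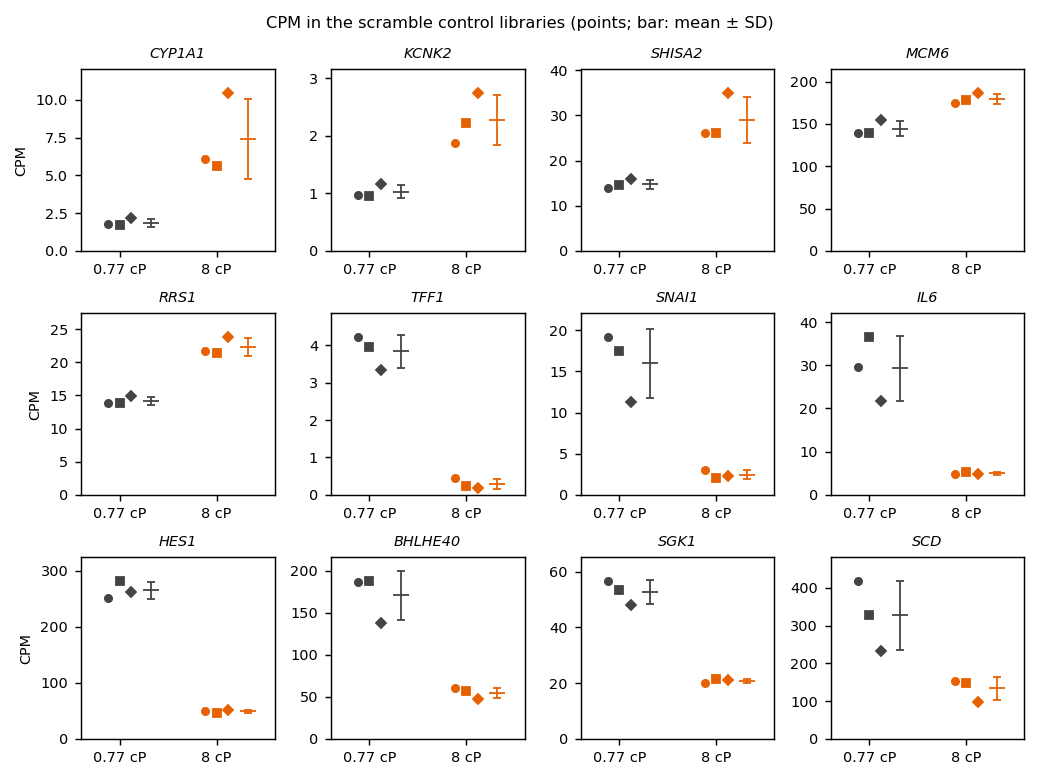
CPM of 12 genes in the 3 SC libraries at 0.77 cP (dark grey) and at 8 cP (orange), with a symbol for each replicate number and a bar for mean ± SD; each y axis starts at 0. CYP1A1, KCNK2, SHISA2, MCM6 and RRS1 are higher at 8 cP and the other 7 are lower, with no overlap in any panel.

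The falls were larger. Members of the immediate early and cholesterol synthesis lists were left out, but other quickly induced genes were not. TFF1, a secreted trefoil peptide of mucosal epithelia (chromosome 21, 42362282 to 42366535), was at 4.22, 3.94 and 3.33 CPM at 0.77 cP and 0.445, 0.248 and 0.176 CPM at 8 cP (log2 fold change -3.71 ± 0.26, edgeR adjusted p = 1.6e-07). C11orf96, a small gene of poorly known function, was at 3.30, 3.79 and 3.43 CPM at 0.77 cP and 0.303, 0.456 and 0.628 CPM at 8 cP (log2 fold change -2.92 ± 0.21, edgeR adjusted p = 1.8e-07). NUAK2, a kinase of the AMPK family and a target of YAP, was at 17.1, 17.2 and 15.4 CPM at 0.77 cP and 3.21, 2.64 and 2.06 CPM at 8 cP (log2 fold change -2.65 ± 0.15, edgeR adjusted p = 1.3e-08). In TFF1 and NUAK2 replicate 3 was the lowest at both viscosities. DUSP1, a phosphatase that switches off MAP kinases, was at 258, 256 and 232 CPM at 0.77 cP and 47.4, 51.3 and 60.4 CPM at 8 cP (log2 fold change -2.23 ± 0.092, edgeR adjusted p = 1.8e-10). RHOB, a small GTPase whose transcript is short-lived, was at 112, 104.2 and 81.6 CPM at 0.77 cP and 34.8, 34.3 and 30.8 CPM at 8 cP (log2 fold change -1.57 ± 0.093, edgeR adjusted p = 1.7e-08). KDM6B, a demethylase of histone H3, and CLK1, a kinase of splicing factors, fell by 0.95 and 0.79 (edgeR adjusted p = 5.6e-07 for each). The list of spliceosome and splicing factors leaned the other way. Of its 45 tested members 11 rose and 3 fell, with a median log2 fold change of 0.07. The number that rose was 4 to 11 without 1 SC library. An unnamed long non-coding RNA, ENSG00000272512, changed by -3.18 ± 0.20 (edgeR adjusted p = 4.8e-08).

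Transcripts of many inflammatory genes were lower at 8 cP. Of NF-kappaB targets 0 of the 23 tested members rose and 16 fell, with a median log2 fold change of -0.35, against 9.69% of all genes falling. IL6 was at 29.7, 36.6 and 21.6 CPM at 0.77 cP and 4.92, 5.36 and 4.73 CPM at 8 cP (log2 fold change -2.54 ± 0.16, edgeR adjusted p = 3.8e-08). CXCL8, the neutrophil chemoattractant interleukin 8, was at 58.2, 69.0 and 37.4 CPM at 0.77 cP and 11.1, 12.3 and 9.91 CPM at 8 cP (log2 fold change -2.30 ± 0.20, edgeR adjusted p = 1.7e-06). CXCL2, a related chemokine, was at 11.7, 13.4 and 5.28 CPM at 0.77 cP and 2.25, 2.30 and 1.99 CPM at 8 cP (log2 fold change -2.21 ± 0.26, edgeR adjusted p = 7.2e-05). In these 3 genes replicate 2 was the highest and replicate 3 the lowest at 0.77 cP, and the 8 cP libraries lay close together below them. CSF2, a growth factor of granulocytes and macrophages, was at 22.4, 23.2 and 21.0 CPM at 0.77 cP and 5.64, 5.03 and 5.93 CPM at 8 cP (log2 fold change -2.00 ± 0.082, edgeR adjusted p = 1.6e-10). TNFAIP3, the deubiquitinase A20 that ends NF-kappaB signalling, was at 12.8, 13.5 and 12.3 CPM at 0.77 cP and 6.45, 7.02 and 6.74 CPM at 8 cP (log2 fold change -0.93 ± 0.075, edgeR adjusted p = 7.6e-07). Of 8 tested CXCL genes 4 fell (CXCL1, CXCL2, CXCL3 and CXCL8) and none rose. In the wider list of chemokines and interleukins 3 of the 33 tested members rose and 12 fell, with a median log2 fold change of -0.35, and IL6ST, the signalling receptor of the IL6 family, was among those that rose (log2 fold change 0.22 ± 0.039, edgeR adjusted p = 0.00206).

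Interferon-stimulated genes leaned down as well: 1 of the 36 tested members rose and 13 fell, with a median log2 fold change of -0.21. OASL, an antiviral synthetase-like protein, was at 58.4, 67.8 and 59.0 CPM at 0.77 cP and 36.2, 37.0 and 33.8 CPM at 8 cP (log2 fold change -0.79 ± 0.064, edgeR adjusted p = 7.1e-07). IFIT2, which binds viral RNA, was at 175, 189.9 and 172 CPM at 0.77 cP and 118, 124 and 107 CPM at 8 cP (log2 fold change -0.62 ± 0.095, edgeR adjusted p = 0.00077). IRF1, a transcription factor of the response, changed by -0.69 ± 0.064 (edgeR adjusted p = 3.5e-06), with 2805 exon bases that are also antisense exon bases. Of 18 tested genes of MHC class I presentation 2 (11.1%) rose and 2 (11.1%) fell, near the 9.57% and 9.69% over all genes. TAP2, the peptide transporter, was the member with the smallest p (log2 fold change 0.39 ± 0.069, edgeR adjusted p = 0.00194).

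Some Notch genes fell. In the Notch list 0 of the 15 tested members rose and 6 fell, with a median log2 fold change of -0.36. HES1, the main Notch-driven repressor (chromosome 3, 194136148 to 194138732), was at 252, 282 and 262 CPM at 0.77 cP and 50.1, 46.2 and 50.9 CPM at 8 cP (log2 fold change -2.44 ± 0.054, edgeR adjusted p = 1.3e-13). HES4, a related repressor, was at 52.8, 49.6 and 44.02 CPM at 0.77 cP and 21.3, 21.8 and 19.4 CPM at 8 cP (log2 fold change -1.23 ± 0.074, edgeR adjusted p = 2.2e-08). NRARP, a feedback inhibitor, was at 5.76, 5.00 and 4.79 CPM at 0.77 cP and 2.49, 2.31 and 2.69 CPM at 8 cP (log2 fold change -1.06 ± 0.12, edgeR adjusted p = 3.3e-05). The ligand JAG1 fell by 0.36 (edgeR adjusted p = 0.00024). NOTCH1, NOTCH2 and RBPJ, picked out after their values were seen, had estimates of -0.07, 0.10 and 0.13 that did not pass. Of BMP targets 1 of the 14 tested members rose and 4 fell, with a median log2 fold change of -0.18. ID2, an inhibitor of basic helix-loop-helix factors, was at 5.21, 4.13 and 4.07 CPM at 0.77 cP and 2.40, 1.75 and 1.94 CPM at 8 cP (log2 fold change -1.14 ± 0.14, edgeR adjusted p = 9.7e-05). ID3 was at 141, 131 and 112 CPM at 0.77 cP and 91.3, 86.0 and 88.1 CPM at 8 cP (log2 fold change -0.53 ± 0.073, edgeR adjusted p = 0.00027). BMP2 itself changed by -0.81 ± 0.18 (edgeR adjusted p = 0.00716), and NOG, its extracellular antagonist, rose (log2 fold change 0.30 ± 0.067, edgeR adjusted p = 0.00769). Of Wnt targets and feedback genes, 3 of 17 (17.6%) rose and 2 (11.8%) fell, against 9.57% and 9.69% of all tested genes. The receptor FZD7 was at 113, 117 and 120.0 CPM at 0.77 cP and 151, 153 and 162 CPM at 8 cP (log2 fold change 0.41 ± 0.045, edgeR adjusted p = 2.6e-05). Of 8 tested FZD genes 4 rose and 1 fell, FZD8.

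The epithelial to mesenchymal transition list held no member that rose: 0 of the 22 tested members rose and 10 fell, with a median log2 fold change of -0.20. SNAI1, a repressor of epithelial genes, was at 19.2, 17.5 and 11.3 CPM at 0.77 cP and 3.04, 2.01 and 2.26 CPM at 8 cP (log2 fold change -2.71 ± 0.18, edgeR adjusted p = 8.8e-08). SNAI2, its relative, was at 121, 119 and 111 CPM at 0.77 cP and 43.7, 41.0 and 40.7 CPM at 8 cP (log2 fold change -1.49 ± 0.050, edgeR adjusted p = 1.9e-11). Both were far apart between the groups, and SNAI1 replicate 3 was the lowest at 0.77 cP. The list holds markers of both states, and members of each fell. FN1, a mesenchymal matrix protein, was at 1394, 1277 and 1018 CPM at 0.77 cP and 973, 858 and 852 CPM at 8 cP (log2 fold change -0.46 ± 0.087, edgeR adjusted p = 0.00295), while CLDN4, an epithelial claudin, changed by -0.28 ± 0.060 (edgeR adjusted p = 0.0059). Of keratins and desmosomes 1 of the 19 tested members rose and 11 fell, with a median log2 fold change of -0.28. KRT19 was at 796, 764 and 686 CPM at 0.77 cP and 606, 606 and 531 CPM at 8 cP (log2 fold change -0.37 ± 0.068, edgeR adjusted p = 0.00246). KRT81 and JUP, a plakoglobin of desmosomes, fell by 0.40 and 0.35 (edgeR adjusted p = 0.00047 and 0.00074). PKP4, a plakophilin-like protein of junctions, rose (log2 fold change 0.37 ± 0.065, edgeR adjusted p = 0.00206). Of 16 tested KRT genes 8 fell and none rose.

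Many feedback genes of growth factor signalling were lower. Among MAPK phosphatases and Sprouty proteins 1 of the 20 tested members rose and 12 fell, with a median log2 fold change of -0.20. DUSP5, which acts on nuclear ERK, was at 314, 358 and 351 CPM at 0.77 cP and 117, 116 and 119 CPM at 8 cP (log2 fold change -1.54 ± 0.053, edgeR adjusted p = 2.2e-11). DUSP10 was at 57.7, 55.9 and 55.8 CPM at 0.77 cP and 32.0, 30.8 and 29.1 CPM at 8 cP (log2 fold change -0.88 ± 0.051, edgeR adjusted p = 1.3e-08). SPRY4 fell by 0.42 (edgeR adjusted p = 1.2e-05), whereas SPRY1 rose by 0.22 (edgeR adjusted p = 0.0426), a call lost in 5 of 9 refits. Among ligands and receptors of the EGF family 4 of the 10 tested members fell and none rose. AREG was at 281, 308 and 256 CPM at 0.77 cP and 168, 169 and 134 CPM at 8 cP (log2 fold change -0.84 ± 0.097, edgeR adjusted p = 5e-05) and HBEGF at 136, 141 and 151 CPM at 0.77 cP and 92.1, 91.2 and 94.2 CPM at 8 cP (log2 fold change -0.63 ± 0.046, edgeR adjusted p = 2.7e-07). The groups were apart in both. EREG changed less (log2 fold change -0.20 ± 0.060, edgeR adjusted p = 0.0316), and its call was lost in 4 of 9 refits.

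Clock and glucocorticoid-responsive genes leaned down. In the circadian list 2 of the 17 tested members rose and 8 fell, with a median log2 fold change of -0.27. BHLHE40, a repressor in the clock and in hypoxia, was at 187, 188 and 138 CPM at 0.77 cP and 59.9, 56.6 and 47.9 CPM at 8 cP (log2 fold change -1.64 ± 0.11, edgeR adjusted p = 4.8e-08). PER1 was at 16.2, 17.1 and 14.7 CPM at 0.77 cP and 8.97, 9.10 and 8.60 CPM at 8 cP (log2 fold change -0.84 ± 0.080, edgeR adjusted p = 4.6e-06). NR1D1 fell by 0.45 and CLOCK rose by 0.22 (edgeR adjusted p = 0.00045 and 0.00547). Among glucocorticoid receptor targets 3 of the 12 tested members rose and 7 fell, with a median log2 fold change of -0.45. SGK1, a kinase of ion transport, was at 56.7, 53.5 and 48.1 CPM at 0.77 cP and 19.9, 21.3 and 21.1 CPM at 8 cP (log2 fold change -1.34 ± 0.064, edgeR adjusted p = 1.2e-09), and it was counted under hypertonic response genes as well. ERRFI1 was at 974, 1075 and 940.4 CPM at 0.77 cP and 773, 782 and 731 CPM at 8 cP (log2 fold change -0.39 ± 0.053, edgeR adjusted p = 0.00027). FKBP5, a much used marker of the receptor, went the other way (log2 fold change 0.26 ± 0.072, edgeR adjusted p = 0.0195), and its call was lost in 3 of 9 refits. PER1 and DUSP1 belong to this list too, and the number that fell was 7 in every refit without 1 SC library.

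Stress responses split by member. Among heat shock chaperones 6 of the 24 tested members rose and 7 fell, with a median log2 fold change of 0.06. The inducible HSPA1A was at 111, 59.1 and 59.2 CPM at 0.77 cP and 27.1, 26.8 and 27.4 CPM at 8 cP (log2 fold change -1.50 ± 0.17, edgeR adjusted p = 4.4e-05), with replicate 1 well above the other 2 libraries at 0.77 cP. HSPA1B, an almost identical copy whose reads may be shared with it, was at 233, 148 and 138 CPM at 0.77 cP and 80.0, 75.2 and 70.7 CPM at 8 cP (log2 fold change -1.20 ± 0.14, edgeR adjusted p = 4.8e-05). DNAJB1, their co-chaperone, was at 506, 448 and 452 CPM at 0.77 cP and 322, 326 and 311 CPM at 8 cP (log2 fold change -0.55 ± 0.053, edgeR adjusted p = 5.8e-06). HSPD1, the mitochondrial chaperonin, rose instead, at 540.4, 564 and 616 CPM at 0.77 cP and 676, 673 and 711 CPM at 8 cP (log2 fold change 0.26 ± 0.050, edgeR adjusted p = 0.00322). The heat shock motif, GAANNTTC, was in 40.9% of 22 chaperone promoters and in 4.79% of all; the stretch upstream of HSPA1A is shown because it had the largest fall of the list, with the motif in capitals.
HSPA1A, chr6:31815417-31815464, plus strand: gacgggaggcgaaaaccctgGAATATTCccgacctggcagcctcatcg

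Of the ATF4 amino acid response 8 of the 32 tested members rose and 4 fell, with a median log2 fold change of -0.02, and its 4 smallest p belonged to members that fell. DDIT3, the stress factor CHOP, was at 33.2, 35.4 and 38.2 CPM at 0.77 cP and 13.5, 14.8 and 15.4 CPM at 8 cP (log2 fold change -1.29 ± 0.069, edgeR adjusted p = 4.7e-09). SLC38A2, a transporter of neutral amino acids that also answers hypertonic stress, was at 356, 369.9 and 351 CPM at 0.77 cP and 237, 225 and 219.7 CPM at 8 cP (log2 fold change -0.66 ± 0.052, edgeR adjusted p = 6.1e-07). CEBPB and DDIT4 fell by 0.86 and 0.71 (edgeR adjusted p = 2.2e-06 and 6.4e-05). The unfolded protein response had 1 of 27 members (3.70%) higher and 5 (18.5%) lower, against 9.57% and 9.69% of all tested genes. HERPUD1, which fell, had its smallest p (log2 fold change -0.40 ± 0.059, edgeR adjusted p = 0.00056). For p53 targets 1 of the 24 tested members rose and 8 fell, with a median log2 fold change of -0.11. GDF15, a stress cytokine, was at 10.5, 15.5 and 11.1 CPM at 0.77 cP and 6.49, 5.50 and 6.83 CPM at 8 cP (log2 fold change -0.97 ± 0.15, edgeR adjusted p = 0.00067), and GADD45A at 227, 235 and 219 CPM at 0.77 cP and 141, 149 and 144 CPM at 8 cP (log2 fold change -0.65 ± 0.063, edgeR adjusted p = 5.8e-06). ZMAT3 rose (log2 fold change 0.37 ± 0.069, edgeR adjusted p = 0.00258). In the hypertonic list 1 of the 11 tested members rose and 5 fell, with a median log2 fold change of -0.29, and AQP1, a water channel, changed by -0.59 ± 0.12 (edgeR adjusted p = 0.00517).

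Hypoxia targets fell without exception among those called: 0 of the 25 tested members rose and 14 fell, with a median log2 fold change of -0.20. EPAS1, the hypoxia-inducible factor HIF-2 alpha, was at 100.9, 88.3 and 79.8 CPM at 0.77 cP and 63.0, 61.6 and 47.6 CPM at 8 cP (log2 fold change -0.64 ± 0.13, edgeR adjusted p = 0.00385). EGLN3, an oxygen-sensing hydroxylase, was at 32.1, 36.0 and 29.5 CPM at 0.77 cP and 26.9, 25.7 and 22.8 CPM at 8 cP (log2 fold change -0.37 ± 0.078, edgeR adjusted p = 0.00502). MXI1 and ADM fell by 0.49 and 0.25 (edgeR adjusted p = 0.00622 and 0.00389). The number that fell was 5 to 14 without 1 SC library, lowest without SC 0.77 cP replicate 1. In glycolysis 1 of the 26 tested members rose and 10 fell, with a median log2 fold change of -0.11. SLC2A3, a glucose transporter, was at 78.6, 85.9 and 69.1 CPM at 0.77 cP and 57.8, 54.8 and 49.4 CPM at 8 cP (log2 fold change -0.53 ± 0.076, edgeR adjusted p = 0.00046). ALDOC and PFKFB4 fell by 0.86 and 0.46 (edgeR adjusted p = 0.00037 and 0.00316), whereas PFKFB2 rose by 0.23 (edgeR adjusted p = 0.0197). The glycolysis count was 4 to 10 without 1 SC library, lowest without SC 8 cP replicate 3.

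Fatty acid genes were divided. In synthesis and desaturation 3 of the 18 tested members rose and 7 fell, with a median log2 fold change of -0.06. SCD, the desaturase that makes oleate, was at 418, 329 and 234 CPM at 0.77 cP and 153, 148 and 98.5 CPM at 8 cP (log2 fold change -1.29 ± 0.19, edgeR adjusted p = 0.00058), with a wide spread among the 0.77 cP libraries. FADS2 was at 159, 132 and 114 CPM at 0.77 cP and 94.3, 92.3 and 90.8 CPM at 8 cP (log2 fold change -0.55 ± 0.082, edgeR adjusted p = 0.00058), and SREBF2, the sterol-sensing factor, at 142, 125 and 114 CPM at 0.77 cP and 86.4, 81.7 and 74.6 CPM at 8 cP (log2 fold change -0.65 ± 0.072, edgeR adjusted p = 3.1e-05). ELOVL6, an elongase, rose (log2 fold change 0.20 ± 0.042, edgeR adjusted p = 0.00541). FOXO targets, which are held down by insulin and growth factor signalling, fell or did not pass: 0 of the 20 tested members rose and 9 fell, with a median log2 fold change of -0.19. BCL6, a repressor, was at 32.4, 34.8 and 30.1 CPM at 0.77 cP and 21.2, 20.6 and 21.4 CPM at 8 cP (log2 fold change -0.62 ± 0.058, edgeR adjusted p = 4.4e-06). CCNG2, a cyclin of arrested cells, changed by -0.35 ± 0.078 (edgeR adjusted p = 0.00753).

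Matrix and adhesion genes leaned down. Of collagens and laminins 0 of the 38 tested members rose and 14 fell, with a median log2 fold change of -0.11. COL1A2, a chain of collagen I and one of the fibroblast markers checked, was at 33.1, 29.3 and 26.2 CPM at 0.77 cP and 19.4, 17.6 and 15.3 CPM at 8 cP (log2 fold change -0.76 ± 0.10, edgeR adjusted p = 0.00025); COL1A1, the other chain and also a fibroblast marker, fell (log2 fold change -0.35 ± 0.086, edgeR adjusted p = 0.0117), and the fibroblast markers DCN and PDGFRA were at or near 0 in both groups, with LUM below 1 CPM. COL13A1 was at 304, 285 and 285 CPM at 0.77 cP and 247, 246 and 238 CPM at 8 cP (log2 fold change -0.26 ± 0.042, edgeR adjusted p = 0.00127), and LAMB2 fell by 0.31 (edgeR adjusted p = 0.00372). Of 27 tested COL genes 12 fell and none rose. Integrins were mixed: 2 of the 16 tested members rose and 6 fell, with a median log2 fold change of -0.15. ITGB4, the partner of hemidesmosomes, was at 458, 435 and 413 CPM at 0.77 cP and 348, 334 and 295 CPM at 8 cP (log2 fold change -0.42 ± 0.059, edgeR adjusted p = 0.00039). ITGAV, a chain of vitronectin receptors, rose (log2 fold change 0.20 ± 0.052, edgeR adjusted p = 0.0159). Among matrix glycoproteins and proteoglycans 1 of the 27 tested members rose and 8 fell, with a median log2 fold change of -0.11. FN1, given above, is one of them. Of 10 hyaluronan and CD44 genes 1 (10%) rose and 1 (10%) fell, near the 9.57% and 9.69% over all genes. The gene that fell was CEMIP, which degrades hyaluronan, at 462, 418 and 369.5 CPM at 0.77 cP and 322, 289 and 255 CPM at 8 cP (log2 fold change -0.53 ± 0.081, edgeR adjusted p = 0.00074). MMP11 fell by 0.75 (edgeR adjusted p = 0.00036). Matrix proteases as a list had 2 of 34 (5.88%) higher and 5 (14.7%) lower, against 9.57% and 9.69% over all genes. In the guidance list 1 of the 52 tested members rose and 18 fell, with a median log2 fold change of -0.14. PLXNB3, a plexin, was at 36.1, 31.6 and 28.2 CPM at 0.77 cP and 23.0, 21.0 and 18.2 CPM at 8 cP (log2 fold change -0.63 ± 0.091, edgeR adjusted p = 0.00047), and SEMA3B, a secreted semaphorin, was at 81.7, 68.5 and 61.6 CPM at 0.77 cP and 48.8, 48.9 and 35.6 CPM at 8 cP (log2 fold change -0.67 ± 0.13, edgeR adjusted p = 0.00304). Of 18 tested SEMA genes 7 fell and 1 rose.

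YAP and TAZ targets did not move as one group. Of 25 tested targets 4 rose and 6 fell, with a median of -0.02. CCN1, a matricellular target, was at 1470.0, 1573 and 1277 CPM at 0.77 cP and 1074, 1047 and 1044 CPM at 8 cP (log2 fold change -0.45 ± 0.078, edgeR adjusted p = 0.00185). AMOTL2 was at 232, 213 and 245 CPM at 0.77 cP and 179.9, 169 and 181 CPM at 8 cP (log2 fold change -0.38 ± 0.052, edgeR adjusted p = 0.00027), while its relative AMOTL1 rose (log2 fold change 0.18 ± 0.047, edgeR adjusted p = 0.0145). The 4 that rose became 0 to 5 without 1 SC library. In the Hippo kinases upstream 5 of the 14 tested members rose and 0 fell, with a median log2 fold change of 0.08, led by MOB1A at 127, 139 and 139 CPM at 0.77 cP and 148, 154 and 150.3 CPM at 8 cP (log2 fold change 0.16 ± 0.046, edgeR adjusted p = 0.0245), and the number that rose ran from 0 to 6 in the same refits and was 2 with an offset for GC content. Of cytoskeletal targets of SRF and MRTF 3 of 22 rose and 5 fell, which became 6 and 3 in a fit with an offset for GC content, and 1 and 0 without SC 0.77 cP replicate 1. LIMA1, an actin bundling protein, rose (log2 fold change 0.29 ± 0.054, edgeR adjusted p = 0.00258), and TAGLN2 fell (log2 fold change -0.19 ± 0.048, edgeR adjusted p = 0.0145). Of Arp2/3 subunits and activators, which build branched actin, 3 of 22 (13.6%) rose and none fell, against 9.57% and 9.69% of all tested genes. The number that rose was 1 to 4 without 1 SC library, and with the GC offset 2 rose and 1 fell. ACTR2, which rose, was at 323, 342 and 349 CPM at 0.77 cP and 399.9, 392 and 412 CPM at 8 cP (log2 fold change 0.25 ± 0.047, edgeR adjusted p = 0.00312). Of focal adhesion proteins 3 of 34 (8.82%) rose and 5 (14.7%) fell. Of actin dynamics genes 5 of 33 (15.2%) rose and 5 (15.2%) fell. Over all tested genes 9.57% rose and 9.69% fell, so these shares lay near or not far above the background. Without SC 0.77 cP replicate 1 no focal adhesion gene fell and 1 actin dynamics gene rose and 2 fell, and without SC 8 cP replicate 3 no focal adhesion gene rose. FSCN1, the actin bundler of filopodia, fell (log2 fold change -0.33 ± 0.052, edgeR adjusted p = 0.00099).

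Channels and transporters of volume and calcium also split. Among mechanosensitive and calcium channels 6 of 26 rose and 6 fell, with KCNK2 given above, and without SC 0.77 cP replicate 2 only 1 fell. PKD2, a calcium-permeable channel of the TRP family, was at 33.0, 34.4 and 35.6 CPM at 0.77 cP and 42.1, 41.5 and 43.8 CPM at 8 cP (log2 fold change 0.31 ± 0.057, edgeR adjusted p = 0.00267), and TRPM7 at 29.3, 30.4 and 30.2 CPM at 0.77 cP and 34.5, 36.1 and 35.7 CPM at 8 cP (log2 fold change 0.24 ± 0.051, edgeR adjusted p = 0.00528). ORAI3, a subunit of store-operated channels, was at 12.3, 11.1 and 10.6 CPM at 0.77 cP and 8.86, 7.89 and 6.93 CPM at 8 cP (log2 fold change -0.52 ± 0.099, edgeR adjusted p = 0.00304). TRPV4 itself was below 1 CPM, and its estimate was -0.01 ± 0.39 (edgeR adjusted p = 0.991). Of volume and water transport genes 5 of 29 rose and 6 fell. LRRC8D, a subunit of the swelling-activated anion channel, was at 22.2, 20.4 and 24.6 CPM at 0.77 cP and 27.0, 29.5 and 31.8 CPM at 8 cP (log2 fold change 0.39 ± 0.071, edgeR adjusted p = 0.00233). AQP3, a channel for water and glycerol, was at 7.80, 6.999 and 6.07 CPM at 0.77 cP and 4.85, 4.71 and 4.43 CPM at 8 cP (log2 fold change -0.57 ± 0.10, edgeR adjusted p = 0.00192). Caveolae (3 of 12 higher, 1 lower) and tubulins with their regulators (6 of 24 and 4) were divided in the same way; ROR1 rose and CAVIN3 fell (0.35 ± 0.066 and -0.28 ± 0.056; edgeR adjusted p = 0.0029 and 0.00375).

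Counts of several other lists also dropped without 1 library, as calls over all tested genes did. Without SC 0.77 cP replicate 1 the calls were 671 higher and 738 lower of 18596 genes. They were 963 and 964 of 18682 without SC 0.77 cP replicate 2, and 687 and 731 of 18761 without SC 8 cP replicate 3. Without SC 0.77 cP replicate 1, the number that fell was 5 for collagens and laminins, 5 for the epithelial to mesenchymal transition, 4 for FOXO targets, 4 for the circadian clock, 3 for integrins, 3 for fatty acid synthesis and desaturation, 12 for the guidance list and 2 for the EGF family. Without that library, the number that rose was 4 in the NRF2 list, 4 for G1 cyclins, 5 for the proteasome, 3 for translation factors, 3 for heat shock chaperones and 0 for tubulins and their regulators. Without SC 0.77 cP replicate 2, 8 interferon-stimulated genes fell, and without SC 8 cP replicate 3, 3 p53 targets, 7 keratin and desmosome genes and 3 small nucleolar RNA host genes fell.

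In other gene groups the shares called lay on both sides of the 9.57% and 9.69% over all genes. Of nuclear respiratory chain subunits 8.45% (6 of 71) rose and 2.82% fell, and of mitochondrial ribosomal proteins 10.4% (8 of 77) rose and 1.30% fell. Of zinc finger genes, taken by symbols beginning with ZNF, 4.65% (21 of 452) rose and 9.07% fell. The blocked fit of the 6 SC libraries called more genes over all, 2929 higher and 2963 lower of 17894 tested. In it the numbers higher and lower were 9 and 19 for the respiratory chain and 18 and 7 for mitochondrial ribosomal proteins. For zinc finger genes they were 42 and 74. Without SC 0.77 cP replicate 1, where 671 of all 18596 tested genes rose and 738 fell, fewer members were called. Only 1 respiratory chain gene, 1 mitochondrial ribosomal protein and 4 zinc finger genes rose there, and 11 zinc finger genes fell. Of secretory coat and SNARE genes 3.03% rose and 9.09% fell, of chromatin modifiers 12.1% and 15.5%, and of lysosome genes 9.38% and 15.6%, while 4 of 24 autophagy genes (16.7%) fell and none rose. Without SC 0.77 cP replicate 1 the number that fell was 1 for lysosome and for autophagy genes, and without SC 8 cP replicate 3 it was 5 for chromatin modifiers.

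Beyond function, the direction of change followed base composition and level. In the quintile of genes with the lowest transcript GC content (26.9% to 40.9%), 16.3% rose and 4.91% fell, while in the quintile with the highest (57.6% to 83.3%) 4.36% rose and 18.3% fell. Genes on chromosome 18 rose in 14.9% and fell in 3.55% of cases, and genes on chromosome 19 rose in 4.38% and fell in 14.8%. In the quintile of genes longest on the genome 12.8% rose and 6.78% fell, against 3.29% and 7.16% in the shortest. In the quintile of lowest mean level 0.411% rose and 3.78% fell, against 20.8% and 9.99% in the highest. Of 2826 long non-coding RNAs 47 (1.66%) rose and 138 (4.88%) fell, both below the 9.57% and 9.69% over all genes. A fit that took the GC trend of each library out, added after seeing the data, called 1830 genes higher and 1605 lower. In that fit 34 DNA replication members rose in place of 31, 32 of ribosome biogenesis in place of 29, 18 of nucleotide synthesis in place of 19 and 29 of mitosis, the number without the offset. Among the falling lists, 14 NF-kappaB targets fell in place of 16, 13 hypoxia targets in place of 14, 10 of collagens and laminins in place of 14 and 5 p53 targets in place of 8.

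**Figure D5:**
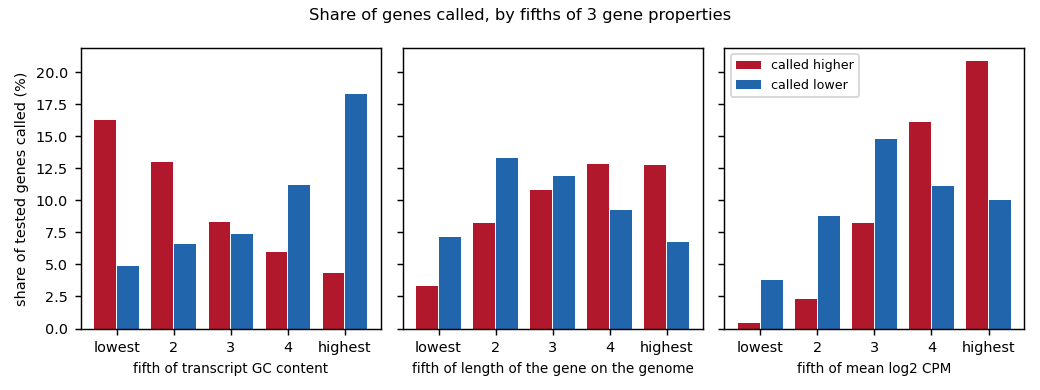
Share of tested genes called higher (red) and lower (blue) at 8 cP in quintiles of transcript GC content, of the length of the gene on the genome and of mean log2 CPM. The share called higher falls from 16.3% to 4.36% over the GC quintiles while the share called lower rises from 4.91% to 18.3%.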

How the data were processed

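Poly(A) RNA from 9 samples of SC and shTRPV4 cells was sequenced from strand-specific libraries. Per the labels and the study's methods, the authors aligned reads to GRCh38.p13 with HISAT2 2.2.1 and totalled exon reads per Ensembl gene with HTSeq 0.13.5; the deposited values are raw counts per gene, 1 table per sample. Whether counting used strand is not given in the sources used here, and 97 of the 215 genes chosen by rule share exon bases with another gene. Symbols and positions came from GENCODE release 44 (60463 of 60664 gene IDs matched), and transcript GC content from each gene's longest transcript there.

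Counts of all 9 samples were fitted with edgeR 4.0.16 in R 4.3.3 (filterByExpr, TMM, quasi-likelihood test, no covariate), contrasting SC at 8 cP with SC at 0.77 cP, and p-values were adjusted by Benjamini-Hochberg over 18264 genes. The SE is the log2 fold change over the root of F. The test was checked on simulated data. Depths of 64571681 to 103518036 pairs gave a biological coefficient of variation of 0.0633. With 3 against 3 libraries an exact permutation test cannot go below 0.1. Replicates differed beyond counting noise.

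Gene lists, members and families were chosen with earlier results of these data known, and lists are described by counts and medians with no set test. The genes named include the 10 largest rises and 10 largest falls among called genes. These needed at least 100 mean normalized counts in a group, no overlap, and no place on the immediate early or cholesterol synthesis list. Other quickly induced genes were not left out. Also named are the 4 smallest p, plus the best in the other direction, of lists with at least 5 tested and 1 in 3 called. The smallest p of other lists was named too. Anything else was picked after its values were seen. Same-numbered SC libraries correlated in their deviations at 0.19, 0.11 and 0.40 over 13093 genes above 1 CPM, but at 0.046, 0.032 and 0.090 over all tested genes. Above 1 CPM the differently numbered SC pairs ran from -0.29 to 0.14, the highest being SC 0.77 cP replicate 1 with SC 8 cP replicate 2. The labels do not say what the numbers mean, so both fits are given. The alternatives were DESeq2 1.42.0, upper quartile scaling, no filter, at least 10 counts in every SC sample, the 6 SC samples alone, the replicate block, leaving out each sample, and, added after seeing the data, the block with only the SC samples and an offset for GC content. A few genes and 1 list that the rule names are not reported here.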

Additional observations from a re-analysis of the deposited data

How the results depend on the processing

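All 215 genes chosen by rule kept their direction in every refit, and 175 stayed past the threshold whichever SC library was left out. The counts of 1748 genes higher and 1770 lower became 88 and 610 with a change of at least 0.5 on the log2 scale, 20 and 237 with at least 1, and 2929 and 2963 with a replicate block and only the 6 SC samples, a fit added after seeing the data. With the replicate block and all samples they were 1740 and 1735. Leaving out 1 library gave 671 to 2359 higher and 731 to 2169 lower. The cause was not tested. Of 30 list medians, 29 kept their sign in every refit and 14 stayed within 1 replicate SD. The median of aryl hydrocarbon receptor targets, -0.0069, was -0.0142 to 0.0289 with 1 library left out, and its sign changed without SC 0.77 cP replicate 2 (0.0289) and without SC 8 cP replicate 1, where the value was 0.013. Requiring 10 counts in every SC sample moved the medians of immediate early genes to -1.1437, collagens to -0.1827 and hypertonic response to -0.1328. With no filter those of Hippo genes, metallothioneins and epithelial mesenchymal transition were 0.1024, 0.1348 and -0.2284. With the GC offset those of p53 targets and semaphorins were -0.0578 and -0.0897. With 1 library left out the medians ran from -0.2277 to -0.1362 for MAPK feedback, 0.0609 to 0.1071 for Hippo genes, -0.4605 to -0.3214 for Notch, -0.1704 to -0.0884 for p53 targets, 0.064 to 0.1051 for metallothioneins, 0.1552 to 0.2512 for ribosome biogenesis, 0.1937 to 0.2964 for DNA replication, -0.1678 to -0.0656 for integrins, -0.1169 to -0.0406 for collagens, -0.2382 to -0.1706 for epithelial mesenchymal transition, -0.3077 to -0.2086 for keratins, -0.1622 to -0.0968 for semaphorins, -0.3674 to -0.1723 for hypertonic response and -0.3871 to -0.2311 for chemokines.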
